A study of Mus musculus with 6 samples.

Results

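The oncofetal genes of this account are genes that are active in fetal tissue, largely silent in most adult tissue and switched on again in many carcinomas. They were the rows of the deposited gene table whose symbol was one of Hmga1, Hmga2, Igf2bp1, Igf2bp2, Igf2bp3, Lin28b, Afp, H19, Igf2 and Gpc3. Of these 10 genes, 9 had a row among the 28212 genes of the table, 6 passed the filter on low counts, and Lin28b was not analysed here. The libraries came from LD-1, a mouse cholangiocarcinoma line, that is, a line of bile duct cancer cells, in 2 groups: 3 libraries of cells stimulated with HGF and 3 of control cells. HGF is hepatocyte growth factor, which signals through the Met receptor, and the stated aim was to assess how it changes expression in these cells. The labels give LD-1 and CCA tissue for every library, name no other treatment, genotype or allele, and state neither dose nor time. All libraries are from the same line. The labels do not say whether replicates were separate cultures, and each p-value therefore reflects only the variation among these 6 libraries, possibly technical in part.

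Oncofetal genes fall into a few classes. HMGA1 and HMGA2 are small chromatin proteins that bend AT-rich DNA through AT-hooks. The IGF2BP proteins bind messenger RNAs, among them that of the growth factor IGF2, and stabilise or localise them. LIN28B blocks maturation of the let-7 microRNAs, which in turn repress Hmga2 and Igf2bp messages in differentiated cells. AFP is the albumin-like serum protein of the fetal liver, H19 and Igf2 are neighbouring imprinted genes, and GPC3 is a heparan sulfate proteoglycan anchored to the cell surface.

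The let-7 microRNAs share a seed, the stretch at bases 2 to 8 that pairs with target messages, and it is shown because 5 of the oncofetal messages carry its match. Mature sequences are from RefSeq (GRCm38.p6), 5′ to 3′, with the seed in capitals; the 8 mature forms read, let-7a to let-7g and let-7i, all carried this seed.
let-7a-5p: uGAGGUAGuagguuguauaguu
let-7d-5p: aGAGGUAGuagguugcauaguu
let-7g-5p: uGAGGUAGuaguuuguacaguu
let-7i-5p: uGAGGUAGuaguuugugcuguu

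In the longest annotated 3′ UTR of each gene (GENCODE M21, GRCm38), Hmga2 and Igf2bp1 each held 4 matches to the seed (CTACCTC on the sense strand), and Hmga1, Igf2bp2 and Igf2bp3 each held 1. A match followed by an A is an 8mer site, the strongest canonical kind. Igf2bp1 had 3 of these and Hmga2, Igf2bp2 and Igf2bp3 had 1 each, whereas the match of Hmga1 lacked the A. Among 13735 tested genes with an annotated 3′ UTR, 10.3% held at least 1 match, 3.63% held an 8mer and 10 genes held at least 4 matches. The median UTR of these genes was 1125 bases, and members with a match had UTRs of 1183 (Hmga1) to 6337 bases (Igf2bp1). The shares were not adjusted for length. Afp (201 bases), Igf2 (3050 bases) and Gpc3 (441 bases) held no match in the UTRs searched. The sites below are written as DNA, 5′ to 3′ on the strand of the gene, with the seed match in capitals.
Hmga2, 8mer at chr10:120364224-120364246, minus strand: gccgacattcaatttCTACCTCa
Igf2bp1, first 8mer at chr11:95961778-95961800, minus strand: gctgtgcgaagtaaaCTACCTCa
Igf2bp2, 8mer at chr16:22059473-22059495, minus strand: acacacaaataaaagCTACCTCa
Igf2bp3, 8mer at chr6:49086787-49086809, minus strand: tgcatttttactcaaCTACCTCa
Hmga1, match without the A at chr17:27563277-27563299, plus strand: tcctctgttcacaaaCTACCTCt

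**Figure D1:**
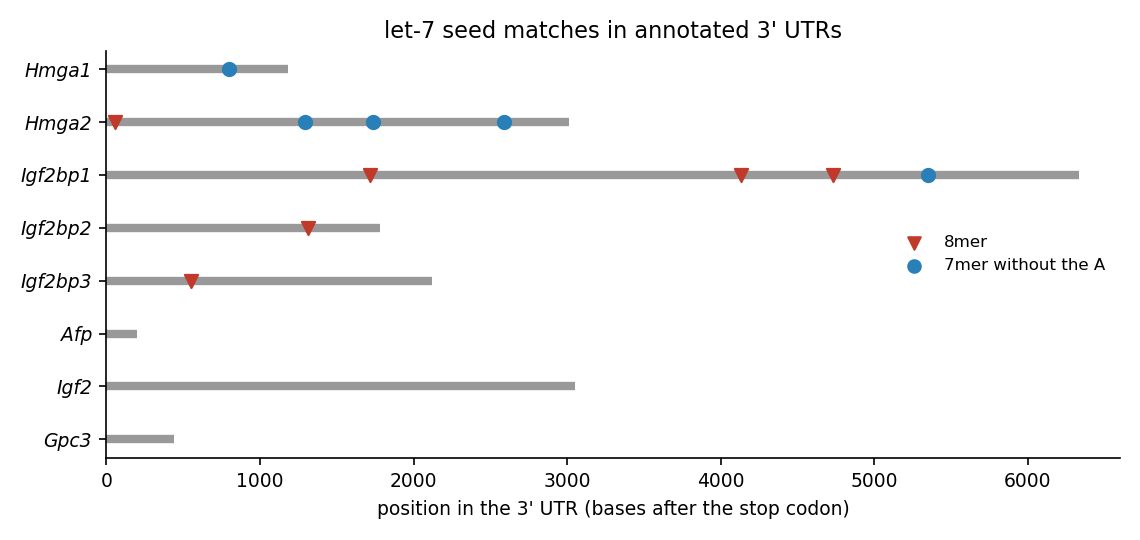
Positions of let-7 seed matches in the annotated 3′ UTRs of 8 oncofetal genes, in bases after the stop codon; grey bars are the UTRs, triangles are 8mer sites and circles are matches without the A. Hmga2 and Igf2bp1 hold 4 matches each, and Afp, Igf2 and Gpc3 hold none.

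With HGF, 5 of the 6 tested oncofetal genes rose and 0 fell in edgeR's quasi-likelihood test with Benjamini-Hochberg adjustment over 17322 genes. Hmga1 and Hmga2 rose about 2-fold, Igf2bp2, Igf2bp3 and Afp rose 1.32-fold to 1.42-fold, and Igf2bp1 gave no call. Of all tested genes 38.5% were called, 19.1% as higher and 19.3% as lower. With libraries scaled by their totals alone, 2361 genes rose and 4941 fell, against 3316 and 3349 with TMM scaling, and the oncofetal counts were again 5 and 0. In these bulk libraries a change in the share of cells that use a gene and a change in its RNA per cell cannot be told apart. The median log2 fold change was 0.50 over the 6 oncofetal genes and -0.02 over all tested genes. No tested member had a negative value at an unadjusted p under 0.05, and DESeq2 also called 5 higher and 0 lower. In FPKM, fragments scaled by gene length and library size, the HGF libraries did not overlap the control libraries in 5 of the 6 genes, as was so for 53.5% of all tested genes (18.6% with HGF higher). H19, Igf2 and Gpc3 did not pass the filter and were not tested.

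**Figure D2:**
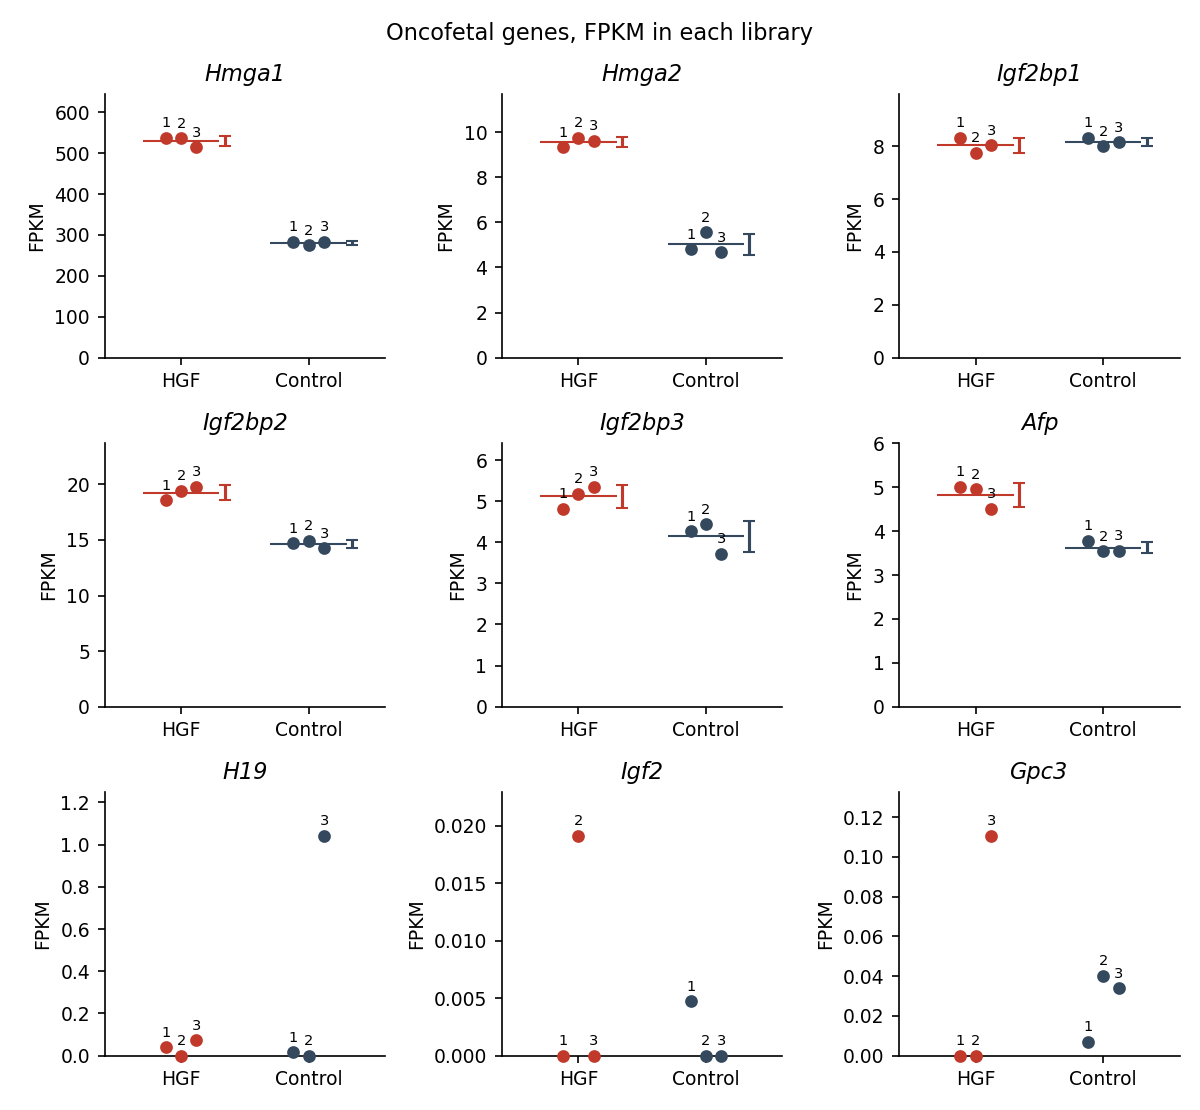
FPKM of the 9 oncofetal genes with a row, in each HGF and control library (points, numbered by replicate), with the mean (line) and SD (bar) of 3 libraries for the 6 tested genes; each vertical axis starts at 0 and has its own range. Hmga1, Hmga2, Igf2bp2, Igf2bp3 and Afp sit higher in every HGF library than in any control library, Igf2bp1 overlaps, and H19 stands out in Control 3 alone.

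Total counts were 64230550 to 65574817 in the HGF libraries and 57073866 to 66302502 in the controls. Control 3 stood apart: 7 skeletal muscle markers summed to 461 CPM (counts scaled to the library total) there, against 3.05 to 5.73 CPM in the HGF libraries and 3.41 and 3.91 CPM in Controls 2 and 1. The sum of 7 macrophage markers was also highest in Control 3 (212 CPM, against 117 to 125 CPM in the HGF libraries and 75.4 and 84.7 CPM in the other controls). Of the 6 macrophage markers tested, 2 rose and 0 fell in edgeR's test: Cd68 by log2 0.89 ± 0.06 and Cd14 by 0.63 ± 0.10. Adgre1, Csf1r, Lyz2 and C1qb had negative values without a call (log2 -2.68 ± 1.37, -0.66 ± 0.51, -0.92 ± 0.55 and -4.02 ± 1.47). Each had its highest count in Control 3. Of 7 bile duct markers, Krt19 and Spp1 were abundant (FPKM of at least 61.1 in every library) and Sox9 lay at 1.43 or more, while Krt7 and Cftr stayed at or under an FPKM of 0.123. Of 5 fibroblast markers tested, 3 rose, the collagen genes Col1a1, Col1a2 and Col3a1. Pdgfra (log2 0.16 ± 0.15) and Dcn (log2 0.89 ± 0.64) gave no call. The 6 listed summed to 425 to 448 CPM with HGF, against 98.2 to 108 CPM in controls, mostly from Col3a1 and Col1a1. Endothelial and blood cell markers summed to at most 6.20 CPM in every library. The part of these other cell types in the results below was not tested.

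Hmga1 was the most abundant oncofetal gene, and Hmga1 and Hmga2 had the largest changes. Both rose by more than 0.9 on the log2 scale, as did 3.85% of all tested genes. Hmga1 (ENSMUSG00000046711, chromosome 17, 27556497 to 27563674, plus strand) had FPKM values of 538, 536 and 515 in the HGF libraries, against 283, 275 and 283 in the controls. Every HGF library lay far above every control library, and the spread within each group was small. By mean FPKM it ranked 61st of 28212 genes with HGF and 134th in controls, so it was among the most abundant messages of these cells. The fitted change was 2.02-fold (log2 1.01 ± 0.04 SE, adjusted p = 1.12e-06).

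Hmga2 (ENSMUSG00000056758, chromosome 10, 120361275 to 120476469, minus strand) had FPKM values of 9.35, 9.76 and 9.62 with HGF, against 4.82, 5.56 and 4.68 in controls. The groups did not overlap, and the lowest HGF library was well above the highest control. Its fold change of 2.04 (log2 1.03 ± 0.07, adjusted p = 1.31e-05) was close to that of Hmga1, although the level of Hmga1 in FPKM was 55.3 ± 2.06 times that of Hmga2 with HGF and 56.3 ± 5.93 times in controls (SD, n = 3 each). The log2 count ratio of Hmga2 to Hmga1 was -4.12 ± 0.05 with HGF and -4.14 ± 0.16 in controls, and the exact permutation test of the difference gave p = 0.90. With 3 libraries against 3, that test cannot go below 0.10. Only 5.46% of tested genes had a larger log2 fold change than Hmga1, and 5.38% a larger one than Hmga2.

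Hmga1b (ENSMUSG00000078249, chromosome 11, 120762794 to 120764419) is a copy of Hmga1, and reads of the pair can be confused. Of the 50-base words in the longest Hmga1 transcript, 69.1% also occur in Hmga1b transcripts. The table gave Hmga1b 21.3, 21.3 and 21.5 counts per 100 Hmga1 counts with HGF, against 21.8, 21.1 and 20.9 in controls. This ratio was almost the same in all 6 libraries, so the change of Hmga1b (log2 1.02 ± 0.04, adjusted p = 1.34e-06) cannot be told apart from that of Hmga1. With both rows summed, the change was log2 1.01 ± 0.04 (adjusted p = 1.06e-06).

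A neighbour on the other strand of Hmga1 also rose. Gm49774, annotated as an antisense RNA at 27545707 to 27556518 that overlaps the first bases of Hmga1, had 1.72, 1.90 and 1.97 FPKM with HGF, against 0.680, 0.707 and 0.753 FPKM in controls (log2 1.48 ± 0.09, adjusted p = 8.03e-06). AI413582, which overlaps the 3′ end of Hmga1 on the minus strand, was at log2 0.06 ± 0.10 (adjusted p = 0.640). The sources used here do not state whether counting used strand, and reads in an overlap could then be counted for either gene.

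The start regions of both HMGA genes are shown because the 2 messages moved by a similar fold. Each window runs from 250 bases before to 50 bases after the RefSeq start (GRCm38.p6), on the strand of the gene, with GC boxes (GGGCGG, either strand) in capitals.
Hmga1, chr17:27556324-27556623, plus strand: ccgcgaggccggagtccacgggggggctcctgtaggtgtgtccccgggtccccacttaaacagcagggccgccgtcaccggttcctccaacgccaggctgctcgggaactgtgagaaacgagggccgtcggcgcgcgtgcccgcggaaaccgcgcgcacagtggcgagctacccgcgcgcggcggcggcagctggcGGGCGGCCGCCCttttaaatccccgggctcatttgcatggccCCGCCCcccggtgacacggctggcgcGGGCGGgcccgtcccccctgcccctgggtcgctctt
Hmga2, chr10:120476420-120476719, minus strand: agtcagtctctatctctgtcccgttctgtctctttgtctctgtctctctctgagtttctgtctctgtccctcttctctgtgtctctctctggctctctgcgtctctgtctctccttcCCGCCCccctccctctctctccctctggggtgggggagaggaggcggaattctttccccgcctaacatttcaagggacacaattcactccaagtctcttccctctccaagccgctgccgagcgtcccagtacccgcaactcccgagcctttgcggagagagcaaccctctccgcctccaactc

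The Hmga1 window was 74.0% G and C and held 4 GC boxes, and the Hmga2 window was 57.7% G and C and held 1. Of 32851 windows of the same length, 35.7% held a GC box. Neither window held the AP-1 motif TGANTCA, present in 7.81% of windows, or the ETS motif CCGGAAG, present in 8.86%, on either strand. The Igf2bp2 window held 2 GC boxes and the Igf2bp3 window held no GC box and 2 E-boxes (CACGTG, 7.15% of windows).

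The IGF2BP genes split. Igf2bp2 (ENSMUSG00000033581, chromosome 16, 22059009 to 22163299, minus strand), the member that persists most in adult tissue, had FPKM values of 18.6, 19.4 and 19.8 with HGF, against 14.7, 14.9 and 14.3 in controls. All HGF libraries lay above all controls, and the gene rose by log2 0.49 ± 0.04 (adjusted p = 4.53e-05). Igf2bp3 (ENSMUSG00000029814, chromosome 6, 49085223 to 49214957, minus strand), a marker of many carcinomas, had 4.81, 5.18 and 5.36 FPKM with HGF, against 4.28, 4.44 and 3.72 in controls. Its groups were apart by a narrower margin, with Control 3 the lowest library, and it rose by log2 0.40 ± 0.07 (adjusted p = 0.00305). Without Control 3 the value was 0.34 (adjusted p = 0.00871), and with limma on log2(FPKM + 1) and no FPKM filter it missed the threshold (adjusted p = 0.0579).

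Igf2bp3 shares its end with another gene. Malsu1, a mitochondrial ribosome assembly factor gene on the plus strand at 49073795 to 49086751, overlaps the 3′ end of Igf2bp3, and 34.5% of the 50-base words of the longest Igf2bp3 transcript occur in Malsu1 transcripts in reverse. Malsu1 had 6.41, 7.02 and 7.47 FPKM with HGF and 7.45, 7.38 and 7.27 in controls, so its groups overlapped and it gave no call (log2 0.02 ± 0.07, adjusted p = 0.886).

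Igf2bp1 (ENSMUSG00000013415, chromosome 11, 95957163 to 96005940, minus strand), the paralog with the most 8mer let-7 sites above, had 8.33, 7.76 and 8.05 FPKM with HGF, against 8.33, 8.005 and 8.14 in controls. The groups overlapped, and the log2 fold change was 0.07 ± 0.05 (adjusted p = 0.243). The sign turned under 4 alternative analyses, with a lowest value of -0.03 when libraries were scaled by their totals alone.

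Ratios within a library do not depend on scaling, and they separated Igf2bp1 from its paralogs. The log2 count ratio of Igf2bp2 to Igf2bp1 was 0.77, 0.94 and 0.91 in the HGF libraries, against 0.43, 0.51 and 0.42 in the controls. That of Igf2bp3 to Igf2bp1 was -1.04, -0.83 and -0.83 with HGF, against -1.21, -1.10 and -1.38 in controls. Both ratios were higher in every HGF library than in any control, by 0.42 and 0.33 on the log2 scale, each with an exact two-sided permutation p = 0.10, the smallest that 3 against 3 allows (0.183 with Benjamini-Hochberg adjustment over the 11 within-library quantities compared). The ratio of Igf2bp2 to Igf2bp3 overlapped between groups (1.77 ± 0.03 with HGF and 1.68 ± 0.10 in controls on the log2 scale, exact permutation p = 0.30). In FPKM, Igf2bp2 made up 59.4% ± 0.77 of the IGF2BP sum with HGF and 54.3% ± 0.39 in controls, and Igf2bp1 24.8% ± 1.27 with HGF and 30.3% ± 0.98 in controls (SD, n = 3 each).

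**Figure D3:**
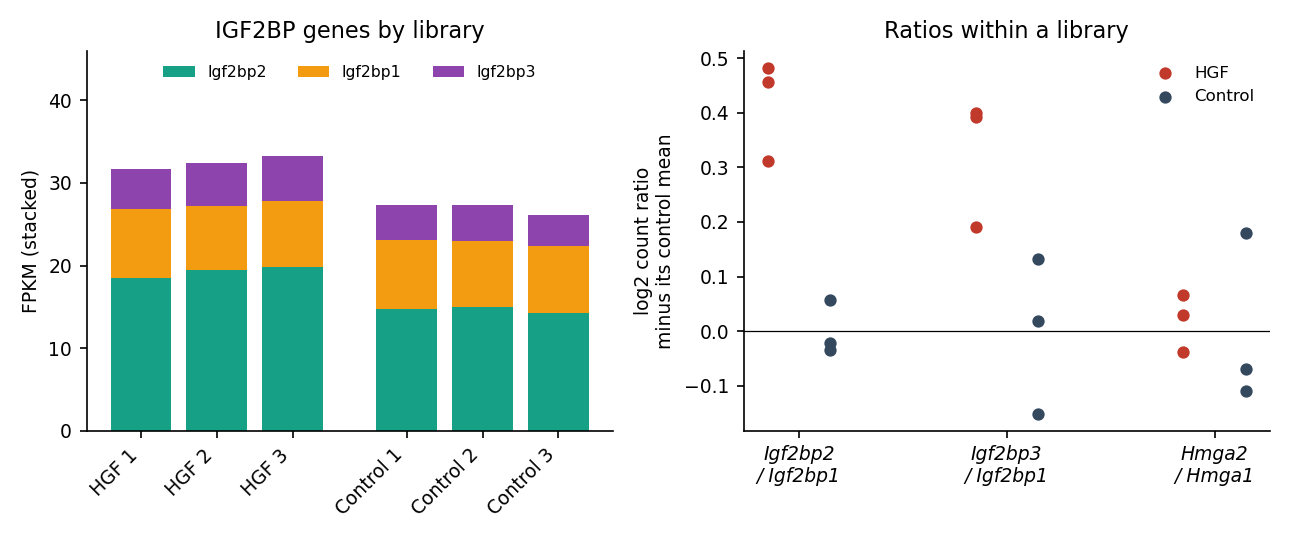
Left, FPKM of Igf2bp2, Igf2bp1 and Igf2bp3 stacked for each HGF and control library; right, log2 count ratios within each library, less the mean of the controls (points are libraries). The sum is 31.7 to 33.2 with HGF and 26.1 to 27.4 in controls, the ratios of Igf2bp2 and Igf2bp3 to Igf2bp1 are higher in each HGF library, and the ratio of Hmga2 to Hmga1 overlaps.

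Afp (ENSMUSG00000054932, chromosome 5, 90490737 to 90508907, plus strand) was expressed in every library at a low level and rose. It had FPKM values of 5.02, 4.95 and 4.52 with HGF, against 3.78, 3.54 and 3.56 in controls. The groups did not overlap, and the change was 1.42-fold (log2 0.51 ± 0.08, adjusted p = 0.00109). Hepatocyte markers rose in the same libraries: 7 of 9 tested passed the threshold and 0 fell, and the 10 listed markers summed to 18.5 to 31.7 CPM with HGF, against 1.09 to 3.83 CPM in controls. None of the 10 was at 0 in all libraries, though Fgb had no counts in the 3 controls and Cyp3a11 none in 4 libraries. Alb, the adult counterpart of Afp and its neighbour in the albumin family, had 2.89, 3.32 and 6.26 FPKM with HGF, against 0, 0.170 and 0.0775 in controls. In the controls Afp was at 3.54 FPKM or more and Alb at 0.170 or less, and every HGF library had more of both messages than any control. The part of liver transcripts in the rise of Afp was not tested.

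The imprinted pair and Gpc3 were near the limit of detection. Igf2 (ENSMUSG00000048583, chromosome 7, 142650766 to 142666816, minus strand) had 0, 9 and 0 counts in the HGF libraries, against 2, 0 and 0 in the controls, so the message whose name the IGF2BP family carries was nearly undetected. Most of its 50-base words (75.9%) also occur in Gm49394, which had 10 counts over all 6 libraries. Gpc3 (ENSMUSG00000055653, chromosome X, 52272426 to 52613950, minus strand) had 0, 0 and 22 counts with HGF, against 2, 8 and 6 in controls, with a single HGF library holding all of the HGF counts. H19 (ENSMUSG00000000031, chromosome 7, 142575529 to 142578143, minus strand), a long noncoding RNA also known from skeletal muscle, had 8, 0 and 14 counts with HGF, against 3, 0 and 167 in controls. The count of 167 was in Control 3, the library with the muscle transcripts; the part of those transcripts in it was not tested. Without Control 3, H19 had at most 14 counts in any library. These 3 genes were not tested, and no direction is given for them.

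**Figure D4:**
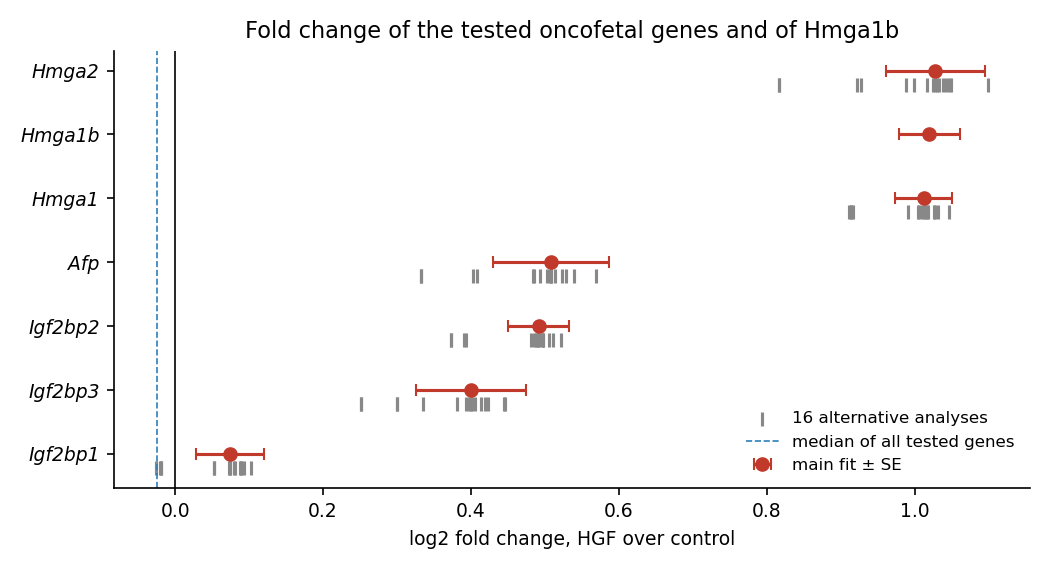
Log2 fold change, HGF over control, of the 6 tested oncofetal genes and of the copy Hmga1b (circles, ± SE), with the values under 16 alternative analyses (grey ticks, for the 6 genes) and the median of all tested genes (dashed line). Hmga1 and Hmga2 lie near 1, Afp, Igf2bp2 and Igf2bp3 between 0.40 and 0.51, and Igf2bp1 near 0.

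Genes of the surrounding pathways were counted from lists chosen for their known roles. The list percentages below stand beside 19.1% higher and 19.3% lower over all tested genes. In the let-7 processing and LIN28 machinery, 5 of 15 tested genes rose and 3 fell (median log2 -0.01). Dicer1, which cuts microRNA precursors, fell to an FPKM of 2.997 ± 0.0476 with HGF, against 3.97 ± 0.202 in controls (log2 -0.31 ± 0.05, adjusted p = 0.00144). Xpo5, the export receptor of those precursors, rose by 0.37 ± 0.07 (adjusted p = 0.00314), and Hnrnpa1, an RNA-binding protein that acts on the let-7a precursor, by 0.39 ± 0.07 (adjusted p = 0.00232). Without HGF 2, 3 genes of the list rose, and with libraries scaled by totals alone 3 rose and 6 fell.

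Other established let-7 targets went both ways, with 7 of 25 higher and 4 lower (median log2 0.04). The cyclin D1 gene Ccnd1 rose by 0.81 ± 0.04 (adjusted p = 3.57e-06). Irs2, an insulin receptor substrate, fell to an FPKM of 2.63 ± 0.127 with HGF, against 4.29 ± 0.0974 in controls (log2 -0.61 ± 0.07, adjusted p = 1.76e-04). Without HGF 3, 2 of the list fell. Over all 498 tested genes with an 8mer let-7 site, 111 (22.3%) rose and 107 (21.5%) fell, close to the 21.8% and 22.5% of all 13735 tested genes with an annotated 3′ UTR. Of the 10 genes with at least 4 matches, 4 rose (Hmga2, Mcf2l, Trim71 and D10Wsu102e) and 2 fell (Hic2 and Zbtb37). Mcf2l was at log2 1.24 ± 0.19 (adjusted p = 0.00108) and Hic2 at -0.33 ± 0.11 (adjusted p = 0.0490). The annotated UTRs of D10Wsu102e and Zbtb37 were 122583 and 16999 bases long, against a median of 1125 bases. A longer UTR can hold more matches, and these counts were not adjusted for length.

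The group of m6A writers and readers and IGF2BP partner proteins had 8 of 20 higher and 4 lower, with small values from -0.35 to 0.41. Pabpc1, the cytoplasmic poly(A)-binding protein gene, rose by 0.41 ± 0.04 (adjusted p = 9.41e-05), the cold-shock protein gene Ybx1 by 0.29 ± 0.03 (adjusted p = 2.74e-04), and Actb, a classic IGF2BP1 cargo message, by 0.27 ± 0.04 (adjusted p = 4.61e-04). The counts of this list were unstable: 4 rose without HGF 2 and 5 without each single control, and 1 fell without HGF 1, HGF 2 or Control 3 and 0 without Control 2.

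Most of the other high mobility group genes moved against the HMGA genes. Of 12 tested, 8 fell (66.7%) and 2 rose (16.7%), with a median log2 fold change of -0.31. Over all tested genes 19.3% fell and 19.1% rose. Hmgb1 (log2 -0.02 ± 0.11) and Ubtf (log2 0.09 ± 0.04) gave no call. Hmgn2, a nucleosome-binding protein gene, averaged 53.7 ± 8.27 FPKM with HGF, against 106 ± 13.3 FPKM in controls (log2 -0.88 ± 0.12, adjusted p = 5.90e-04). Those that fell also include Hmgn5 (log2 -0.86 ± 0.14), Hmgb3 (log2 -0.45 ± 0.06) and Hmgb2 (log2 -0.38 ± 0.07). The 2 that rose were Hmga1b and Ssrp1, a subunit of the histone chaperone FACT (log2 0.34 ± 0.04, adjusted p = 4.19e-04). Under each scaling tried, 8 of this list fell.

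Among other imprinted growth genes 6 of 13 tested rose (46.2%) and 1 fell (7.69%), with a median log2 of 0.29. A further 6 had a row but did not pass the filter. Cdkn1c, the cyclin-dependent kinase inhibitor p57, averaged 8.65 ± 0.196 FPKM with HGF, against 3.93 ± 0.323 FPKM in controls (log2 1.23 ± 0.09, adjusted p = 1.91e-05). Slc38a4, an amino acid transporter gene, rose by 1.39 ± 0.18 from a low level (adjusted p = 4.15e-04) and the adaptor gene Grb10 by 0.50 ± 0.05 (adjusted p = 1.08e-04). The gene that fell, Slc22a18, lost its call without each library except Control 3, and 2 fell without Control 3.

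In the albumin family and among regulators of Afp, 6 of 13 tested rose (46.2%) and 0 fell, with a median log2 fold change of 0.38. The count of lower genes was also 0 at an unadjusted p under 0.05 and with DESeq2. The albumin family genes Alb and Gc, both made by adult liver and the first of them one of the hepatocyte markers above, had the largest values of the list (log2 5.73 ± 0.68 and 5.19 ± 0.37, adjusted p = 2.79e-04 and 2.02e-05). Trp53, which encodes p53, a repressor of Afp, rose by 0.38 ± 0.04 (adjusted p = 2.30e-04). The other listed regulators that rose were Zhx2 (log2 0.63 ± 0.10, adjusted p = 0.00126), Zbtb20 (0.35 ± 0.10, adjusted p = 0.0214) and Foxa2 (0.31 ± 0.07, adjusted p = 0.00610).

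The heparan sulfate list held other glypicans, syndecans and heparan sulfate enzymes, and also Cd81 and Notum. Of its 22 genes 3 (Gpc2, Gpc5 and Hs6st2) did not pass the filter, as Gpc3 did not. Of the 19 tested, 10 rose (52.6%) and 4 fell (21.1%), with a median log2 of 0.31. Cd81 was among the higher (log2 1.12 ± 0.15) and Notum among the lower (log2 -0.54 ± 0.18). Gpc1, the most abundant glypican gene of the list, averaged 36.0 ± 1.68 FPKM with HGF, against 22.6 ± 0.815 FPKM in controls (log2 0.77 ± 0.05, adjusted p = 9.30e-06). The syndecan gene Sdc1 rose by 0.86 ± 0.06 (adjusted p = 1.47e-05) and the sulfatase gene Sulf2 by 0.78 ± 0.05 (adjusted p = 1.83e-05). Without HGF 1, HGF 2, HGF 3 or Control 1, 2 of the list fell.

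Of 14 tested genes in a further list of oncofetal and liver progenitor genes, 4 rose (28.6%) and 0 fell, with a median log2 fold change of 0.41. Here too the count of lower genes was 0 at an unadjusted p under 0.05 and with DESeq2. Those 4 were Krt19, a bile duct keratin (log2 1.47 ± 0.04, adjusted p = 2.71e-07), the progenitor transcription factor genes Sox9 (1.25 ± 0.10, adjusted p = 3.52e-05) and Sox4 (0.76 ± 0.10, adjusted p = 5.65e-04), and Trim71. Krt19 and Sox9 are also among the bile duct markers, and Trim71 is also counted in the let-7 machinery and target lists. Without HGF 3, 1 gene fell. Epcam, a progenitor surface marker, averaged 0.948 ± 0.232 FPKM with HGF, against 1.39 ± 0.403 FPKM in controls (adjusted p = 0.192).

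**Figure D5:**
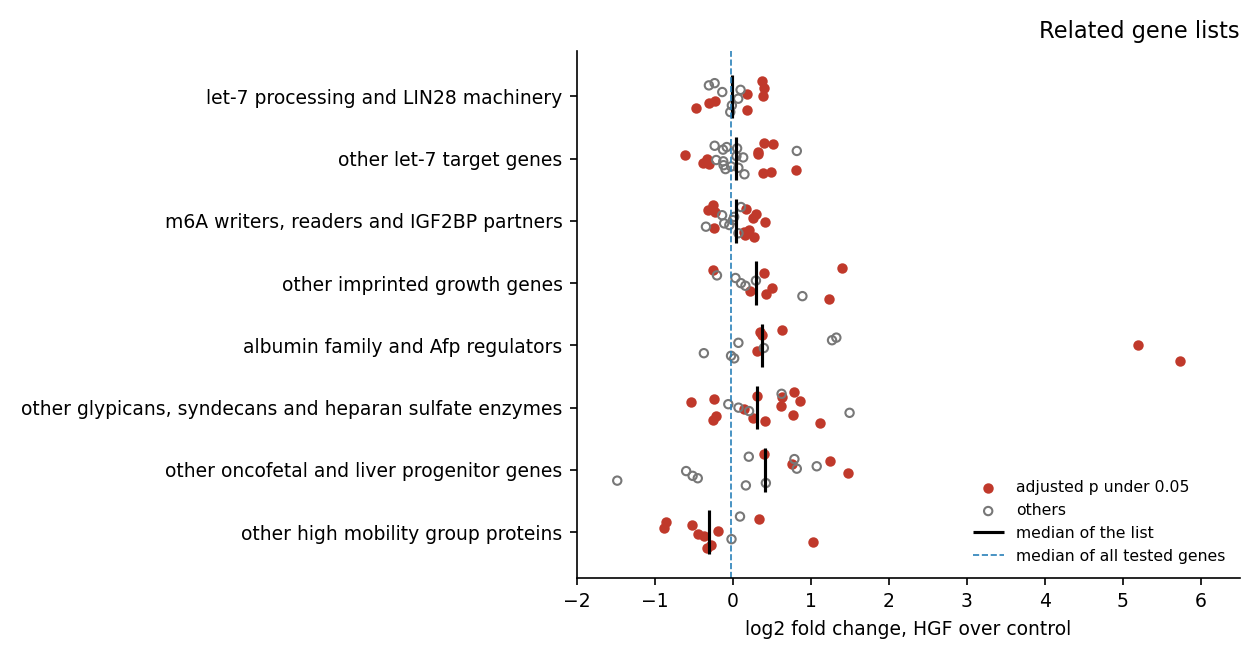
Log2 fold change, HGF over control, of each tested gene in 8 related gene lists; filled points passed an adjusted p of 0.05, black bars are list medians and the dashed line is the median of all tested genes. The high mobility group list lies mostly below 0, with a median of -0.31, while the imprinted, albumin, heparan sulfate and progenitor lists have medians of 0.29 to 0.41.

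The genes whose log2 CPM followed each called oncofetal gene most closely over the 6 libraries were taken among 10406 named genes with a mean FPKM of at least 1. For Hmga1 they were Lgals3bp and Etv4, for Hmga2 Insig1 and Nthl1, for Igf2bp2 Mrps28 and Prdx1, for Igf2bp3 Ube2n and Mrpl45, and for Afp Zbtb7b and Pkig. Pearson's r was at least 0.9975 in each of these 10 cases. These values are a description: all 6 points share the difference between 2 groups, and 340 (Igf2bp3) to 1379 (Hmga1) genes had an r over 0.95.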

How the data were processed

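Poly(A) RNA of 6 LD-1 libraries was read from both fragment ends by Illumina sequencing, per the labels' protocols. HISAT2 2.0, StringTie 1.3.0, Bowtie 0.12.2 and the build mm8 are listed in the submitters' processing notes. The role of each tool is not given in the sources used here. The deposited table holds whole-number counts and FPKM, scaled by the authors for gene length and library size, per the file headers. A count of 4 was commoner than 3 or 5 (means of 1109, 527 and 306 genes per library), so a read pair may weigh 4 counts. Coordinates are as deposited and match GENCODE M21 (GRCm38) for all 9 oncofetal genes and for 90.1% of shared identifiers.

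Counts passed filterByExpr, were scaled by TMM (factors 0.963 to 0.968 with HGF, 1.03 to 1.04 in controls) and tested two-sided in edgeR 4.0.16 (R 4.3.3) at an adjusted p of 0.05. FPKM ratios lack this scaling and run below the fitted folds. SE is the log2 fold change over the root of F. Replicates correlated at r 0.971 to 0.987 and differed by more than sampling noise. Members and lists were chosen with earlier results of these data known. Genes named are the members, the 3 called genes of each list with the smallest p, and for each called member the 2 genes with the highest Pearson correlation. Slc22a18, Hmgn5, Hmgb3, Hmgb2, Trim71, Epcam, Gpc2, Gpc5, Hs6st2, Cd68, Cd14, genes with at least 4 let-7 matches and genes overlapping a member were chosen after their values were seen. So were Zhx2, Zbtb20, Foxa2, Hmgb1, Ubtf and the m6A writer, reader and eraser genes named. Some genes that this rule or the marker lists name are not reported here. DESeq2 1.42.0, limma 3.58.1 on log2(FPKM + 1) or log2(FPKM + 0.1), other scalings, filters and left-out libraries were alternatives.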

Additional observations from a re-analysis of the deposited data

How the results depend on the processing

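Hmga1, Hmga2, Igf2bp2 and Afp kept their direction and their call under all 16 alternatives, with log2 fold changes of 0.91 to 1.05, 0.82 to 1.10, 0.37 to 0.52 and 0.33 to 0.57. Igf2bp3 ranged from 0.25 to 0.45 and missed the threshold under 1 of 16. Igf2bp1 turned negative with library totals alone (-0.026), with limma on log2(FPKM + 1) with or without the FPKM filter (-0.019 in each) and with a pseudocount of 0.1 (-0.021). Library totals alone moved the median of all genes by -0.10 log2, and 32.3% of calls were then higher, against 49.8% with TMM. The causes of changed counts below were not tested.

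With library totals alone, 3 let-7 machinery genes rose and 6 fell, 7 let-7 targets fell, 3 m6A genes rose, 2 imprinted genes fell and 170 genes with an 8mer site fell. With limma on log2(FPKM + 1), 2061 genes of all tested rose, 2 machinery genes rose and 6 fell, 8 targets fell, 3 m6A genes rose and 54 8mer genes rose. With a pseudocount of 0.1 these were 2050, 2 and 6, 8, 3 and 53. With no FPKM filter 2065 genes rose, 0 machinery genes, 3 targets, 3 m6A genes and 56 8mer genes rose, 2 m6A genes fell, and 4 oncofetal genes were called in place of 5. With no low-count filter 5 m6A genes rose and 2 fell, 0 imprinted genes fell and 2 heparan sulfate genes fell. With DESeq2 0 imprinted and 2 heparan sulfate genes fell, and with median-of-ratios scaling 2 m6A and 0 imprinted genes fell. With counts divided by 4, 5 machinery genes fell. With Hmga1 and Hmga1b summed, an alternative chosen after seeing the data, 1 high mobility group gene rose. With 7mer in place of 8mer sites 299 of 1415 tested genes (21.1%) rose and 332 (23.5%) fell, against 22.3% and 21.5% of 498 with 8mer sites.

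Leaving out each library in turn gave 5 oncofetal genes higher and 0 lower each time. Higher and lower counts ranged over 3 to 5 and 2 to 4 (let-7 machinery), 5 to 7 and 2 to 4 (targets), 4 to 7 and 0 to 5 (m6A), 6 to 7 and 0 to 2 (imprinted), 9 to 10 and 2 to 3 (heparan sulfate), and 4 to 5 and 0 to 1 (progenitor). With the replicate block the oncofetal counts were 5 and 0, and 3406 genes rose and 3440 fell. Same-numbered libraries did not deviate together (correlations -0.03 to 0.06, against -0.09 to 0.06 for differently numbered ones). These correlations cannot tell whether same-numbered libraries were prepared together. H19, Igf2 and Gpc3 had too few counts in most libraries to pass the filter.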
